A study of Mus musculus with 78 samples.

Results

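The 41 genes described here are type I interferon-stimulated genes, which encode the antiviral and signalling proteins that cells make after interferon reaches their surface. They were taken by name from the mRNA count table of mouse cartilage treated with inflammatory cytokines, and all 41 were among its 52459 named genes. All 41 were also among the 18857 genes that passed the low-count filter and were tested. The cartilage had been grown in culture from mouse induced pluripotent stem cells, and total RNA depleted of ribosomal RNA was sequenced. It had been treated with TNF-alpha at 20 ng/mL for 4, 12, 24 or 72 h, treated with IL-1beta at 1 ng/mL for the same times, or left untreated as control and collected at 0, 4, 12, 24 or 72 h. Each group held 3 libraries, named a, b and c, except control 0 h, of which 2 were analysed because column b did not match any other library. The labels used here give no cell line, mouse strain or number of cultures behind a group, so the p-values measure the spread between libraries, which may be technical.

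The 38 libraries held 11163263 to 68655350 counts. The 9 chondrocyte markers, among them Col2a1 and Acan, had counts in every library and summed to 16816 to 157230 CPM (counts scaled to a common library total). Of the marker lists of other cell types, 5 fibroblast genes summed to 2583 to 11862 CPM, 4 adipocyte genes to 185 to 740 CPM, 6 plasmacytoid dendritic cell genes to 160 to 397 CPM and 9 macrophage and monocyte genes to 17.5 to 71.2 CPM. The sums were 0.239 to 0.904 CPM for 7 T and NK cell genes, 0.421 to 2.07 CPM for 5 endothelial genes and 1.56 to 3.23 CPM for 5 pluripotent cell genes. Levels are given in CPM scaled by the TMM method, and fold changes are log2 values from edgeR with their standard error (SE). A gene was called changed when the Benjamini-Hochberg adjusted p of edgeR's quasi-likelihood test, taken over all 18857 genes, was below 0.05.

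Type I interferons bind the receptor chains Ifnar1 and Ifnar2, which signal through the kinases Jak1 and Tyk2. These activate the complex ISGF3, which contains Stat2 and Irf9 and binds the interferon-stimulated response element (ISRE) in the promoters of its target genes. The products block virus entry, translation and replication, sense foreign nucleic acid, modify proteins with Isg15, or attract lymphocytes through the receptor Cxcr3. Many of these genes can also be induced without interferon, through NF-kappaB and Irf1, which TNF-alpha and IL-1beta are known to activate. The labels name no interferon treatment in any group.

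Promoters are shown for 7 of the genes the results turn on, because they let the same element be read in each. The sequences are RefSeq, build GRCm38.p6 (the build also called mm10), and run 5′ to 3′ on the strand of the gene up to the base before an annotated start. Capitals mark matches to the ISRE core, which is GAAA, any 2 bases and GAAA again, or on the other strand TTTC, any 2 bases and TTTC, and overlapping matches run together.
Isg15: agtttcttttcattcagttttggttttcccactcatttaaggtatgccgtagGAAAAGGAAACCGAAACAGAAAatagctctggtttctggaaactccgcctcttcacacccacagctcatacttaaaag
Ifit1: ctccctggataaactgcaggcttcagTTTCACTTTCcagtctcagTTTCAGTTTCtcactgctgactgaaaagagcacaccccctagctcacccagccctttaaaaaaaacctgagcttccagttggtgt
Ifit3: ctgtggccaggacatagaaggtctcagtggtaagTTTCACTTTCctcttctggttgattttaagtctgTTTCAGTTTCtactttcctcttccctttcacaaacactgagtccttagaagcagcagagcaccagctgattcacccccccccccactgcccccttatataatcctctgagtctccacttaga
Ifit3b: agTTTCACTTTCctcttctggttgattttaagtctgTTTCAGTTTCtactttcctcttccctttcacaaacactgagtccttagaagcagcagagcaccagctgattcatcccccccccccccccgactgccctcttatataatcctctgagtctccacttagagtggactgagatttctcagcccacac
Rsad2: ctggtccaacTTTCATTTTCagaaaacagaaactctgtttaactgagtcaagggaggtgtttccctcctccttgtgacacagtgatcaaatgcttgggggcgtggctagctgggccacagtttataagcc
Cxcl10: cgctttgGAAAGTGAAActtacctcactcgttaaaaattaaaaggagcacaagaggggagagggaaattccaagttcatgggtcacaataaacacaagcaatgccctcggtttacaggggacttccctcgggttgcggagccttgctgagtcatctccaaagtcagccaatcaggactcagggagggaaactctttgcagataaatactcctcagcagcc
Bst2: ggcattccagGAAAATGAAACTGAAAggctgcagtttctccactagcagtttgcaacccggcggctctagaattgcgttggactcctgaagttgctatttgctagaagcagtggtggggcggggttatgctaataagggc
The windows lie at chr4:156200819-156200948 (minus strand) for Isg15, chr19:34640759-34640888 (plus strand) for Ifit1, chr19:34583339-34583528 (plus strand) for Ifit3, chr19:34607767-34607956 (plus strand) for Ifit3b, chr12:26456453-26456582 (minus strand) for Rsad2, chr5:92348890-92349109 (minus strand) for Cxcl10 and chr8:71537473-71537612 (minus strand) for Bst2. Isg15 showed 3 overlapping matches, Ifit1, Ifit3, Ifit3b and Bst2 showed 2 each, and Rsad2 and Cxcl10 showed 1 each.

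The promoter table matched 31 of the 41 genes, and windows of 250 bases before to 50 after the start were searched on both strands. The ISRE core was found in 14 of the 31 (45.2%), against 1079 of 27025 genes with a promoter in the table (3.99%). The 14 were Bst2, Cxcl10, Ddx58, Eif2ak2, Ifih1, Ifit1, Ifit3, Ifit3b, Isg15, Oas1a, Oas3, Rsad2, Stat2 and Trim30a. A kappaB-like pattern, GGGA, any 4 bases and CC (GG, any 4 bases and TCCC on the other strand), was found in 9 of the 31 (29%) and in 22.9% of all promoters. The 9 were Cxcl10, Cxcl9, Eif2ak2, Epsti1, Ifit2, Isg20, Oasl1, Rsad2 and Xaf1. They include Cxcl10 and Cxcl9, which were among the genes that changed most, and Isg20, which was not called with TNF-alpha at 12 h. Cxcl9 held no ISRE core in this window. A part of either pattern in the changes was not tested. The aligned Ifit3 and Ifit3b promoters were identical at 259 of 260 bases, not counting gaps. Transcript sequences of this gene pair were not compared. Whether reads were shared between them is therefore not known, and their separate values are uncertain.

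By RefSeq positions 19 of the 41 genes lay in 7 clusters of neighbours less than 200000 bases apart. Ifit2, Ifit3, Ifit3b and Ifit1 lay together at chr19:34550550-34650009. Cxcl9, Cxcl10 and Cxcl11 lay at chr5:92321331-92363296, Oasl2 and Oasl1 at chr5:114896926-114937911, and Oas2, Oas3 and Oas1a at chr5:120730333-120907544. Rsad2 and Cmpk2 lay at chr12:26442743-26479837, Parp14, Dtx3l and Parp9 at chr16:35831892-35972621, and Mx1 and Mx2 at chr16:97447035-97560901. Dtx3l and Parp9 overlap there, and the strand setting of the counting is not given in the sources used here, so their reads cannot be fully told apart.

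Several of the genes were already well expressed in untreated cartilage. Per kilobase of the length in the count table, Lgals3bp (a secreted glycoprotein) was highest in control 12 h, at 39.7 ± 3.57 CPM per kb (SD, n = 3), followed by Bst2 (tetherin, which holds budding virus at the cell surface) at 23.5 ± 1.18 and Ifit3 at 12.4 ± 2.84. In TNF-alpha 12 h libraries Bst2 stood first at 100.3 ± 31.0 CPM per kb and Lgals3bp second at 72.7 ± 17.6, and these neighbours did not differ beyond their spread. Cxcl11 was the lowest of the 41 at 12 h, at 0.128 ± 0.124 CPM per kb with TNF-alpha and with no count in the 3 control libraries.

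**Figure D1:**
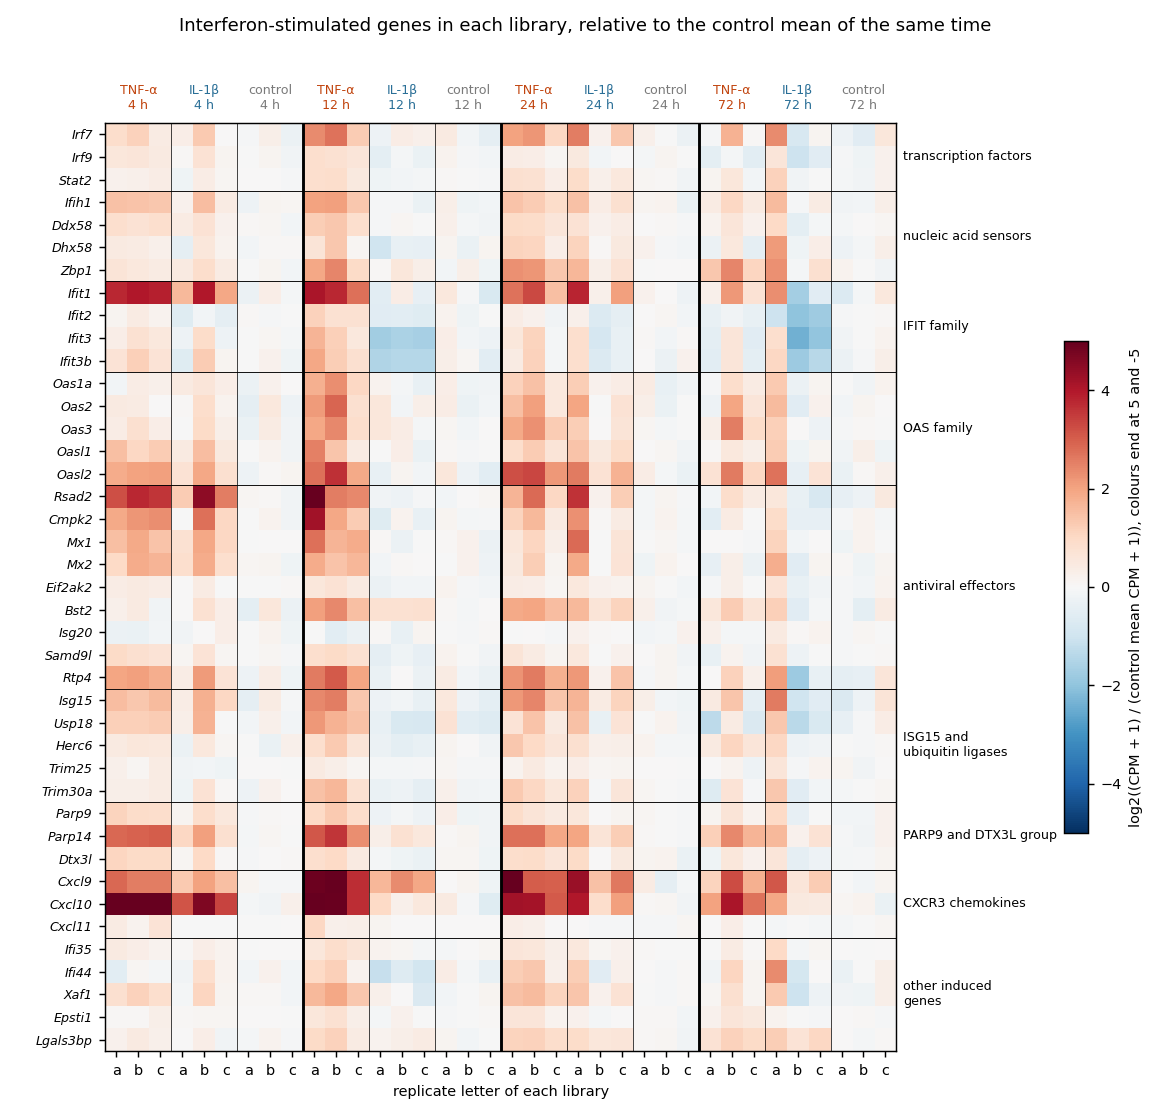
Each of the 41 genes (rows, by role) in each of the 36 libraries at 4 to 72 h (columns, TNF-alpha, IL-1beta and control at each time), as log2 of CPM + 1 relative to the control mean of the same time. Replicates a and b of TNF-alpha 12 h are stronger than c, and replicate b of IL-1beta 4 h, a of IL-1beta 24 h, a of IL-1beta 72 h and b of TNF-alpha 72 h stand out from the other libraries of their groups.

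Single libraries carried much of the signal in several treated groups. As a measure of spread, the SD of log2(CPM + 1) between the libraries of a group had a median over the 41 genes of 0.13, 0.47, 0.41 and 0.41 in TNF-alpha 4, 12, 24 and 72 h. It was 0.49, 0.17, 0.59 and 0.83 in IL-1beta 4, 12, 24 and 72 h, and 0.21, 0.16, 0.19, 0.14 and 0.18 in control 0, 4, 12, 24 and 72 h. Over all 18857 genes the median SD stayed between 0.086 (control 4 h) and 0.14 (TNF-alpha 12 h). The spread at 12 h was large with TNF-alpha and small with IL-1beta, and the widest group was IL-1beta 72 h, 9.39 times the median of all genes. The counts of called genes below moved with the low-count filter: without it 29, 40, 38 and 24 of the 41 were called with TNF-alpha at 4, 12, 24 and 72 h, and 31, 15, 33 and 29 with IL-1beta. The shares of all genes called without the filter are not given here.

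In IL-1beta 72 h the summed level of the 41 genes was 1717, 619 and 814 CPM in libraries a, b and c, against 699, 683 and 849 CPM in control 72 h. Library a was the highest of its group for 40 of the 41 genes. For 32 of the 41 it was more than 2-fold above the mean of the other libraries, taken on log2(CPM + 1). Of the 18857 genes tested, 54 were that far above in library a, and 32 of the 54 were among the 41. Ifit3, whose product binds other IFIT proteins in antiviral complexes, had 67.0, 6.19 and 8.49 CPM in the 3 IL-1beta libraries, against 32.1, 36.5 and 41.5 CPM in control 72 h. Library a lay above all 3 controls, and b and c lay below all of them.

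Genes of the set also stood apart in library b of IL-1beta 4 h, library a of IL-1beta 24 h and library b of TNF-alpha 72 h. In IL-1beta 4 h the summed levels were 495, 881 and 523 CPM, and library b was highest for 39 of the 41 genes. By the same measure, 17 of the 22 genes more than 2-fold above the mean of the other libraries were among the 41. In IL-1beta 24 h the sums were 1133, 576 and 718 CPM, library a was highest for 41 of 41, and 17 of 29 such genes were among the 41. In TNF-alpha 72 h the sums were 846, 1398 and 936 CPM, library b was highest for 40 of 41, and 15 of 22 such genes were among the 41. Gbp3 and Iigp1, interferon-inducible GTPases that are not in the set and were picked after their values were seen, were more than 2-fold above in all 4 of these libraries.

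In the strong groups the exception was a low library. Library c of TNF-alpha 12 h, with a sum of 868 CPM against 1448 and 1447 CPM in a and b, was the lowest for 36 of the 41 genes. Library c of TNF-alpha 24 h was the lowest for 41 of 41, and the sums there were 1163, 1179 and 811 CPM. Of the 4 libraries that stood above their groups, 2 also had the most deposited counts of theirs. IL-1beta 4 h b held 68655350 counts, against 13919485 and 20198456 in the other libraries. TNF-alpha 72 h b held 33497248, against 21157070 and 21379444. In both, every count of the 41 genes was an even number, so reads may have been counted more than once there. If so, their depth is overstated and TNF-alpha 72 h b may not be the deepest of its group. The counts were used as deposited. The part of depth in these results was not tested. IL-1beta 72 h a, the most distinct library, was the shallowest of its group, with 16311782 counts against 20588122 and 22458860. The chondrocyte marker sums of IL-1beta 72 h, 18111, 18136 and 16816 CPM in a, b and c, and its macrophage and monocyte sums, 38.96, 32.7 and 36.7 CPM, had a ratio of highest to lowest library of 1.08 and 1.19, against 2.78 for the sums of the 41 genes.

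**Figure D2:**
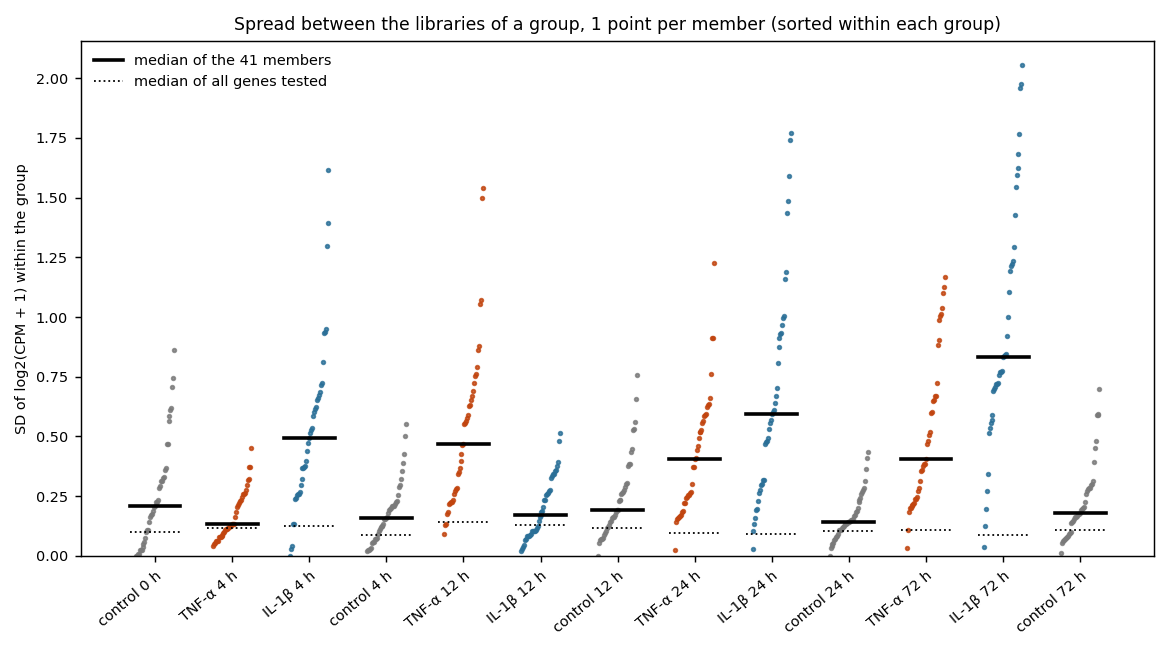
SD of log2(CPM + 1) between the libraries of each of the 13 groups, with 1 point for each of the 41 genes sorted within the group, the median of the 41 as a thick bar and the median of all 18857 genes as a dotted bar. The thick bar is highest in IL-1beta 72 h (0.83) and lies at 0.13 to 0.21 in TNF-alpha 4 h, IL-1beta 12 h and the controls.

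TNF-alpha at 12 h gave the broadest response. Of the 41 genes 36 were higher and 0 lower than in control 12 h, where 14.6% of all genes tested were called higher and 13.8% lower. The median log2 fold change of the 41 was 2.09, against -0.026 over all genes. For 37 of the 41 every TNF-alpha library lay above every control library, as it did for 17.4% of all genes. Leaving out 1 library at a time left 32 to 38 higher, and 32 of the 36 were called in all 6 of those fits.

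The chemokines that bind Cxcr3 and attract T cells changed most. Cxcl10 had 79.6, 59.2 and 24.5 CPM in TNF-alpha 12 h libraries, against 1.72, 0.904 and 0.305 CPM in control 12 h (log2 fold change 5.72 ± 0.75 SE, adjusted p = 2.31e-07). Cxcl9 had 50.2, 55.1 and 21.5 CPM with TNF-alpha, against 0.765, 0.904 and 0.488 CPM in control (log2 fold change 5.86 ± 0.86 SE, adjusted p = 1.58e-06). Library c was the lowest TNF-alpha library for both genes, and still lay far above the controls. Cxcl11, the third chemokine of the cluster, had 26 counts in the TNF-alpha libraries and 0 in the controls, at least 9.13-fold higher when 3 counts over the control group are taken as the limit of a count of 0.

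Of the PARP9 and DTX3L group, an ADP-ribosyl transferase and ubiquitin ligase pair with its relative Parp14, 3 of 3 rose. Parp14, which also acts as a cofactor of Stat6, had 53.8, 75.1 and 31.1 CPM in TNF-alpha 12 h libraries, against 5.55, 5.91 and 4.57 CPM in control 12 h (log2 fold change 3.31 ± 0.38 SE, adjusted p = 1.65e-08). It had the smallest p of the 41 genes, and the groups were far apart. All 5 OAS family genes rose, which encode or resemble the synthetases of the second messenger that activates RNase L. Oasl2 had 19.6, 37.4 and 10.4 CPM with TNF-alpha, against 3.44, 1.57 and 1.10 CPM in control (log2 fold change 3.39 ± 0.69 SE, adjusted p = 0.000228). Oas3, at a much lower level, had 3.89, 5.87 and 1.34 CPM with TNF-alpha, against 0.382, 0.181 and 0.305 CPM in control (log2 fold change 3.60 ± 0.96 SE, adjusted p = 0.00418).

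Of the antiviral effectors 8 of 9 rose. Rsad2 (viperin, which makes a chain-terminating nucleotide) had 61.2, 9.85 and 8.79 CPM in TNF-alpha 12 h, against 0.717, 0.904 and 0.975 CPM in control 12 h (log2 fold change 4.96 ± 0.95 SE, adjusted p = 0.000109). Its neighbour Cmpk2, a mitochondrial nucleotide kinase, had 32.0, 5.87 and 3.30 CPM with TNF-alpha, against 0.956, 0.663 and 0.732 CPM in control (log2 fold change 4.12 ± 0.83 SE, adjusted p = 0.000203). Both genes of this pair were higher in library a than in b, by 6.22-fold for Rsad2 and 5.45-fold for Cmpk2, and Cxcl11 by 5.07-fold, while the sums over all 41 genes were alike in a and b. Bst2 had 91.9, 118 and 61.8 CPM with TNF-alpha, against 22.0, 20.0 and 21.6 CPM in control (log2 fold change 2.09 ± 0.34 SE, adjusted p = 9e-06). Isg20, an exonuclease named for its induction by interferon, was the effector that was not called, with 7.29, 4.79 and 5.88 CPM against 7.17, 7.05 and 7.80 CPM (log2 fold change -0.28, adjusted p = 0.214).

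Of the IFIT family, which binds viral RNA ends and the translation machinery, 3 of 4 rose. Ifit1 had 86.7, 68.7 and 34.0 CPM in TNF-alpha 12 h, against 6.45, 3.98 and 2.01 CPM in control 12 h (log2 fold change 3.88 ± 0.85 SE, adjusted p = 0.000591). Ifit2 rose far less, with 35.6, 26.8 and 26.5 CPM against 17.5, 13.2 and 15.1 CPM (log2 fold change 0.96 ± 0.19 SE, adjusted p = 0.000198). Ifit3 had 72.9, 50.2 and 31.7 CPM with TNF-alpha, against 27.3, 19.7 and 18.1 CPM in control, and was not called although the libraries did not overlap (log2 fold change 1.24, adjusted p = 0.0637). Of Isg15 and the ubiquitin and Isg15 enzymes 4 of 5 rose. Isg15, the ubiquitin-like modifier itself, had 12.1, 13.7 and 5.26 CPM, against 2.58, 1.09 and 0.793 CPM in control (log2 fold change 2.72 ± 0.78 SE, adjusted p = 0.00735). Usp18, which removes Isg15 and dampens the interferon receptor, had a log2 fold change of 1.97 (adjusted p = 0.00866), a call that was lost in 1 of the 6 fits that left out a library (adjusted p = 0.0504).

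Of the nucleic acid sensors 3 of 4 rose. Ifih1 (MDA5, a sensor of long double-stranded RNA) had 23.8, 24.96 and 14.8 CPM in TNF-alpha 12 h, against 6.55, 4.40 and 4.69 CPM in control 12 h (log2 fold change 2.0 ± 0.36 SE, adjusted p = 4.46e-05). Zbp1, a sensor of Z-form nucleic acid that can start necroptosis, had 3.94, 6.003 and 1.51 CPM, against 0.191, 0.603 and 0.122 CPM in control (log2 fold change 3.63 ± 0.81 SE, adjusted p = 0.000667). Dhx58 (LGP2) was the sensor not called (log2 fold change 0.92, adjusted p = 0.143). The 3 transcription factors of the set rose by different amounts. Irf7, the master regulator of interferon-alpha genes, had 23.9, 30.7 and 10.5 CPM against 5.55, 3.38 and 2.56 CPM (log2 fold change 2.46 ± 0.66 SE, adjusted p = 0.00444), while the ISGF3 subunits Stat2 and Irf9 had log2 fold changes of 0.77 (adjusted p = 0.0111) and 0.76 (adjusted p = 0.0181). Of the other 5 genes 4 rose, among them Lgals3bp with 219, 250.1 and 152 CPM against 123, 103 and 113 CPM (log2 fold change 0.87 ± 0.15 SE, adjusted p = 1.43e-05). Trim25 and Ifi44, with Isg20, Dhx58 and Ifit3, made up the 5 genes not called at 12 h (log2 fold changes 0.31 and 0.87, adjusted p = 0.0625 and 0.19).

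**Figure D3:**
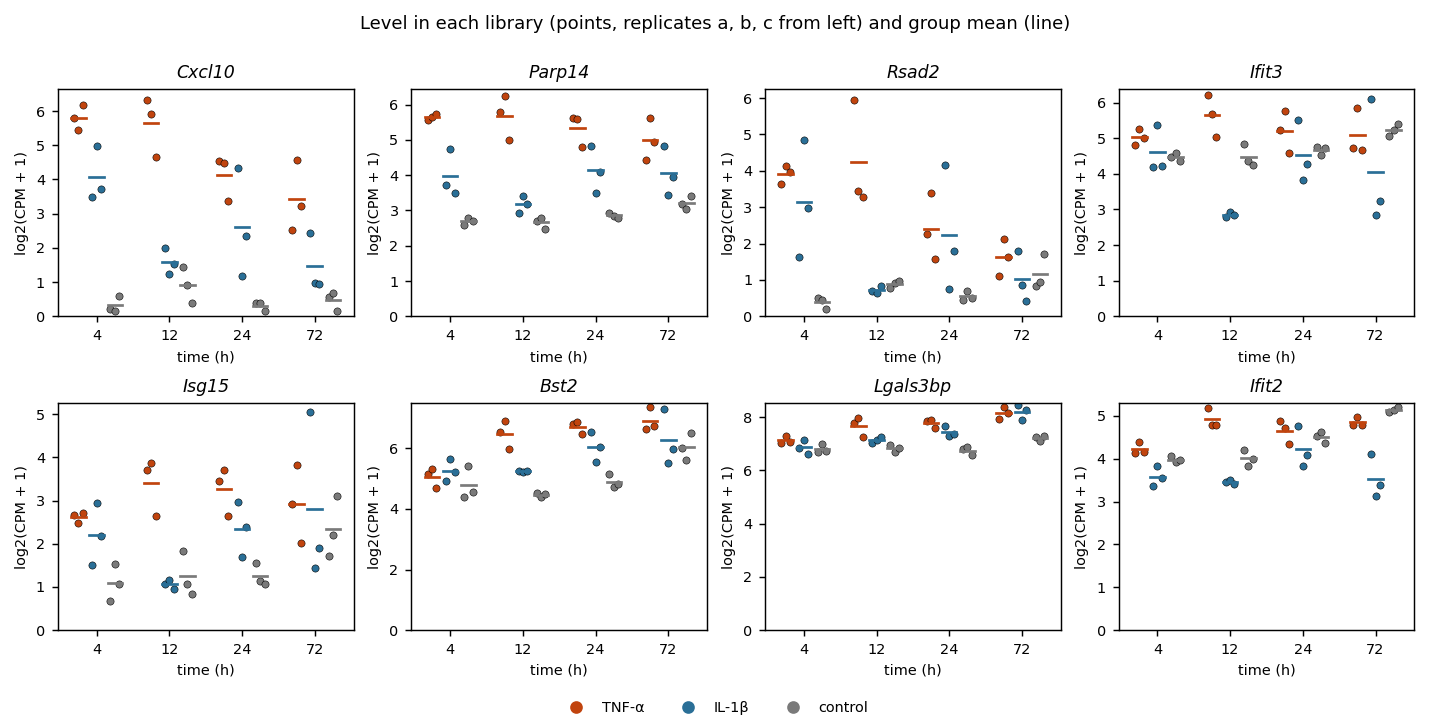
Level of 8 of the genes, as log2(CPM + 1), in each library (points, replicates a, b and c from left to right) of TNF-alpha, IL-1beta and control at 4, 12, 24 and 72 h, with the group mean as a line. Cxcl10 and Parp14 lie above the controls in every TNF-alpha library, while Ifit3 and Isg15 in IL-1beta 72 h are split between 1 high library (67.0 and 32.0 CPM) and 2 low ones.

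At 4 h TNF-alpha gave 17 higher and 0 lower of the 41 genes relative to control 4 h, where 10.9% of all genes were called higher. The median log2 fold change was 1.04, against -0.024 over all genes. The TNF-alpha libraries lay above all controls for 35 of the 41 (all genes 18.2%), which is more than were called. The call used the spread of all 38 libraries, and a fit on these 6 libraries alone called 34 higher. Against control 12 h, a comparison that does not cross the difference in predicted genes described at the end, 18 of the 41 were called. The share of all genes called is not given here for either of these counts, so they cannot be read as particular to the set.

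Cxcl10 was the gene of largest change at 4 h, with 54.8, 42.4 and 71.8 CPM in TNF-alpha 4 h libraries, against 0.167, 0.109 and 0.495 CPM in control 4 h (log2 fold change 7.78 ± 0.83 SE, adjusted p = 5.56e-09). Parp14 had 46.7, 49.5 and 52.2 CPM against 5.07, 5.90 and 5.44 CPM (log2 fold change 3.18 ± 0.36 SE, adjusted p = 1.57e-08), and Rsad2 had 11.4, 16.7 and 14.5 CPM against 0.417, 0.364 and 0.155 CPM (log2 fold change 5.43 ± 1.03 SE, adjusted p = 0.000151). The 3 libraries were close together, unlike those at 12 h. Ifit1 had 48.1, 56.5 and 51.9 CPM with TNF-alpha, against 1.92, 3.50 and 2.32 CPM in control (log2 fold change 4.39 ± 0.86 SE, adjusted p = 0.000226), and Ifih1 had 14.5, 14.0 and 13.2 CPM against 3.67, 5.10 and 4.85 CPM (log2 fold change 1.63 ± 0.36 SE, adjusted p = 0.000894). Mx1, a dynamin-like GTPase that blocks influenza and related viruses, had 88 counts in the TNF-alpha libraries and 2 in the controls, a ratio of 117 with a 95% counting interval of 31.4 to 981. The transcription factors were not called at 4 h, nor were Isg15 and the 4 enzymes grouped with it.

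At 24 h TNF-alpha gave 26 higher and 0 lower relative to control 24 h (all genes 13.2% higher and 11.9% lower, 25% in either direction), with a median of 1.40 against -0.018. Parp14 had 47.7, 47.6 and 27.1 CPM in TNF-alpha 24 h, against 6.60, 6.21 and 5.95 CPM in control 24 h (log2 fold change 2.70 ± 0.37 SE, adjusted p = 4.95e-07). Lgals3bp had 232, 235 and 195 CPM against 109.6, 115 and 94.5 CPM (log2 fold change 1.05 ± 0.14 SE, adjusted p = 6.22e-07), and Cxcl9 had 56.2, 12.4 and 11.9 CPM against 1.21, 0.211 and 0.526 CPM (log2 fold change 5.34 ± 0.87 SE, adjusted p = 1.14e-05). For Cxcl9 a single library, a, was several-fold above b and c, and all 3 lay above the controls. All 5 OAS genes were again higher, with Oasl2 at 20.1, 21.8 and 9.28 CPM against 1.94, 1.11 and 0.789 CPM. Leaving out 1 library left 15 to 27 higher, the lowest without control 24 h c and 17 without TNF-alpha 24 h b, and 14 of the 26 were called in each of the 6 fits.

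At 72 h 10 of the 41 were higher and 0 lower with TNF-alpha than in control 72 h (all genes 17.8% higher), with a median of 0.49 against -0.0080. Lgals3bp had 245, 332 and 287 CPM against 152, 138 and 156 CPM (log2 fold change 0.95 ± 0.14 SE, adjusted p = 1.64e-06), Parp14 had 20.4, 48.1 and 29.6 CPM against 8.07, 7.24 and 9.72 CPM (log2 fold change 1.99 ± 0.36 SE, adjusted p = 2.48e-05), and Cxcl10 had 4.74, 22.7 and 8.29 CPM against 0.489, 0.611 and 0.124 CPM (log2 fold change 4.82 ± 0.94 SE, adjusted p = 8.97e-05). Zbp1 had 2.43, 6.33 and 1.83 CPM against 0.489, 0.329 and 0.186 CPM (log2 fold change 3.39 ± 0.74 SE, adjusted p = 0.000409). In each of these 4 genes the TNF-alpha libraries lay above all controls, with library b highest. The TNF-alpha libraries lay above all controls for 12 of the 41 and for 22.2% of all genes. Without library b, 5 of the 10 were called, namely Cxcl10, Epsti1, Lgals3bp, Parp14 and Zbp1, and Oasl2, Oas3, Cxcl9, Bst2 and Herc6 were not. Ifit2 lay below every control, as did 23.3% of all genes, with 26.6, 30.4 and 26.7 CPM in TNF-alpha 72 h, against 33.1, 34.3 and 35.8 CPM in control 72 h, and was not called (log2 fold change -0.30, adjusted p = 0.202).

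**Figure D4:**
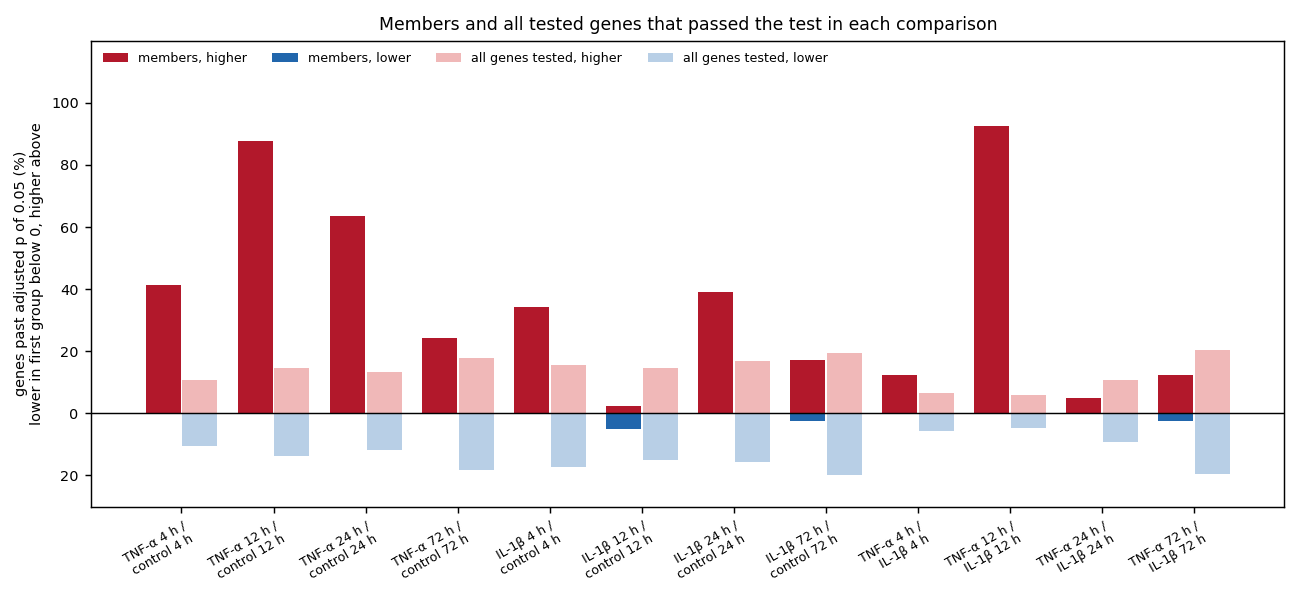
Share of the 41 genes (dark bars) and of all 18857 genes tested (pale bars) with an adjusted p below 0.05, higher in the first-named group above 0 and lower below 0, for TNF-alpha against control, IL-1beta against control and TNF-alpha against IL-1beta at each time. The dark bars reach 36 of 41 for TNF-alpha 12 h against control and 38 of 41 against IL-1beta 12 h, and stay near or under the pale bars for IL-1beta 12 h and 72 h.

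IL-1beta gave a response at 4 h and 24 h that rested largely on 1 library each time. At 4 h 14 of the 41 genes were higher and 0 lower than in control 4 h (all genes 15.5% higher), with a median log2 fold change of 0.79 against -0.033 over all genes. Without library b, 4 were called: Cxcl10, Mx1, Parp14 and Rsad2, and without control 4 h a 9 were called. Cxcl10 had 10.3, 30.8 and 12.1 CPM in IL-1beta 4 h, against 0.167, 0.109 and 0.495 CPM in control 4 h (log2 fold change 6.20 ± 0.87 SE, adjusted p = 6.43e-07), and was called without library b (log2 fold change 5.45, adjusted p = 5.09e-05). Rsad2 had 2.12, 28.1 and 6.82 CPM against 0.417, 0.364 and 0.155 CPM (log2 fold change 5.38 ± 1.00 SE, adjusted p = 6.24e-05), with library b several-fold above a and c and all 3 above the controls. Mx1 had 203 counts in the IL-1beta libraries and 2 in the controls, a ratio of 120 with a 95% counting interval of 32.8 to 996. Of the 203 counts 176 were in library b, where reads may have been counted more than once. The interval leaves out the spread between libraries and may be too narrow.

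Parp14 had 12.2, 25.5 and 10.3 CPM in IL-1beta 4 h, against 5.07, 5.90 and 5.44 CPM in control 4 h (log2 fold change 1.66 ± 0.36 SE, adjusted p = 0.000428). Ifit1 had 9.98, 56.2 and 12.5 CPM against 1.92, 3.50 and 2.32 CPM (log2 fold change 3.52 ± 0.84 SE, adjusted p = 0.00137), and its call was lost without library b (log2 fold change 2.18, adjusted p = 0.101). Isg15, with 1.84, 6.65 and 3.53 CPM against 0.605, 1.89 and 1.11 CPM (log2 fold change 1.98 ± 0.76 SE, adjusted p = 0.0433), overlapped the controls and was also lost (log2 fold change 1.21, adjusted p = 0.414). Ifit2 lay on the other side, with 9.29, 13.2 and 10.7 CPM in IL-1beta libraries, against 15.6, 14.1 and 14.7 CPM in control, but was not called (log2 fold change -0.39, adjusted p = 0.125).

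At 12 h, when TNF-alpha gave its broadest response, IL-1beta gave 1 higher and 2 lower (all genes 14.5% higher and 15% lower), with a median of -0.18 against -0.016. Cxcl9 had 4.50, 7.81 and 5.65 CPM in IL-1beta 12 h, against 0.765, 0.904 and 0.488 CPM in control 12 h (log2 fold change 3.07 ± 1.03 SE, adjusted p = 0.0224). Ifit3 was lower, with 5.86, 6.68 and 6.23 CPM against 27.3, 19.7 and 18.1 CPM (log2 fold change -1.79 ± 0.63 SE, adjusted p = 0.0288), and so was Ifit2, with 10, 10.3 and 9.64 CPM against 17.5, 13.2 and 15.1 CPM (log2 fold change -0.62 ± 0.22 SE, adjusted p = 0.0283). In all 3 genes the groups did not overlap. None of these calls held in each of the 6 fits that left out 1 library: without IL-1beta 12 h b or control 12 h a 0 were called, without IL-1beta 12 h a or c 1 was higher, and without control 12 h c 1 was lower. In a fit on these 6 libraries alone 4 were higher and 7 lower, and with no low-count filter 5 were higher and 10 lower. The shares of all genes called in these other fits are not given here.

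The IL-1beta 12 h libraries lay above all controls for 4 of the 41 genes and below all of them for 10, against 18.8% and 20.2% of all genes. Cxcl10, high at 4 h, had 2.97, 1.37 and 1.88 CPM with IL-1beta at 12 h, against 1.72, 0.904 and 0.305 CPM in control, and these overlapped (log2 fold change 0.95, adjusted p = 0.596). Parp14 was higher in all 3 libraries without a call, with 6.67, 9.62 and 8.12 CPM against 5.55, 5.91 and 4.57 CPM (log2 fold change 0.62, adjusted p = 0.328).

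At 24 h 16 of the 41 were higher and 0 lower with IL-1beta than in control 24 h (all genes 17% higher and 15.6% lower), with a median of 0.90 against -0.0063. Cxcl9 had 31.8, 3.53 and 9.28 CPM in IL-1beta 24 h, against 1.21, 0.211 and 0.526 CPM in control 24 h (log2 fold change 4.52 ± 0.90 SE, adjusted p = 0.000137). Cxcl10 had 19.1, 1.26 and 4.13 CPM against 0.314, 0.316 and 0.105 CPM (log2 fold change 5.04 ± 1.11 SE, adjusted p = 0.00046), and Lgals3bp had 203, 158 and 163 CPM against 109.6, 115 and 94.5 CPM (log2 fold change 0.72 ± 0.14 SE, adjusted p = 0.000156). Library a was highest for each, and all 3 IL-1beta libraries lay above the controls, as they did for 20 of the 41 and for 23.5% of all genes. Rsad2, by contrast, had 16.9, 0.698 and 2.49 CPM against 0.367, 0.632 and 0.421 CPM (log2 fold change 3.82 ± 1.14 SE, adjusted p = 0.00861), and without library a it was not called (log2 fold change 1.82, adjusted p = 0.314). Without library a, 5 genes were higher (Bst2, Cxcl10, Cxcl9, Lgals3bp and Parp14) and 1 was lower, Ifit2 (log2 fold change -0.58, adjusted p = 0.0149), and without control 24 h c 8 were higher.

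At 72 h the IL-1beta group held 2 patterns. With all libraries 7 of the 41 were higher and 1 lower than in control 72 h (all genes 19.3% higher and 19.7% lower), with a median of 0.45 against 0.0034. Without library a, 1 was higher and 4 were lower, and the median turned to -0.28. Without library b, 17 were higher and 1 was lower, and without library c 12 and 1. Without control 72 h a 4 were higher and without control 72 h b 2. The 4 that were lower without library a were Ifit2, Ifit3, Ifit3b and Irf9.

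Ifit2 had 16.3, 7.72 and 9.39 CPM in IL-1beta 72 h, against 33.1, 34.3 and 35.8 CPM in control 72 h (log2 fold change -1.65 ± 0.19 SE, adjusted p = 9.58e-09). It was lower than every control even in library a, and was called in each fit that left out 1 library. Lgals3bp had 347, 240.1 and 306 CPM against 152, 138 and 156 CPM (log2 fold change 1.00 ± 0.14 SE, adjusted p = 5.2e-07), above every control, and was also called in each of those fits. Zbp1 had 5.54, 0.231 and 1.33 CPM against 0.489, 0.329 and 0.186 CPM (log2 fold change 2.66 ± 0.82 SE, adjusted p = 0.00906), overlapped the controls through library b, and was lost without library a (log2 fold change 1.19, adjusted p = 0.324).

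The other genes called at 72 h followed library a. Dhx58 had 28.4, 4.81 and 7.46 CPM in IL-1beta 72 h, against 4.65, 5.36 and 7.24 CPM in control 72 h (log2 fold change 1.21 ± 0.42 SE, adjusted p = 0.0212), and was lost without library a (log2 fold change 0.11, adjusted p = 0.856). Oasl2 had 25.4, 1.99 and 5.49 CPM against 2.15, 3.10 and 3.71 CPM (log2 fold change 1.83 ± 0.67 SE, adjusted p = 0.0294), and was lost as well (log2 fold change 0.35, adjusted p = 0.745). Cxcl9 had 11.6, 1.25 and 2.49 CPM against 0.440, 0.329 and 0.619 CPM (log2 fold change 3.39 ± 1.12 SE, adjusted p = 0.0149) and Parp14 had 27.5, 9.80 and 14.5 CPM against 8.07, 7.24 and 9.72 CPM (log2 fold change 1.03 ± 0.37 SE, adjusted p = 0.0258). In both the IL-1beta libraries lay above all controls, and both were lost without library a (log2 fold change 2.05, adjusted p = 0.24 for Cxcl9; log2 fold change 0.56, adjusted p = 0.292 for Parp14). The IL-1beta libraries lay above all controls for 4 of the 41 and for 25.7% of all genes.

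**Figure D5:**
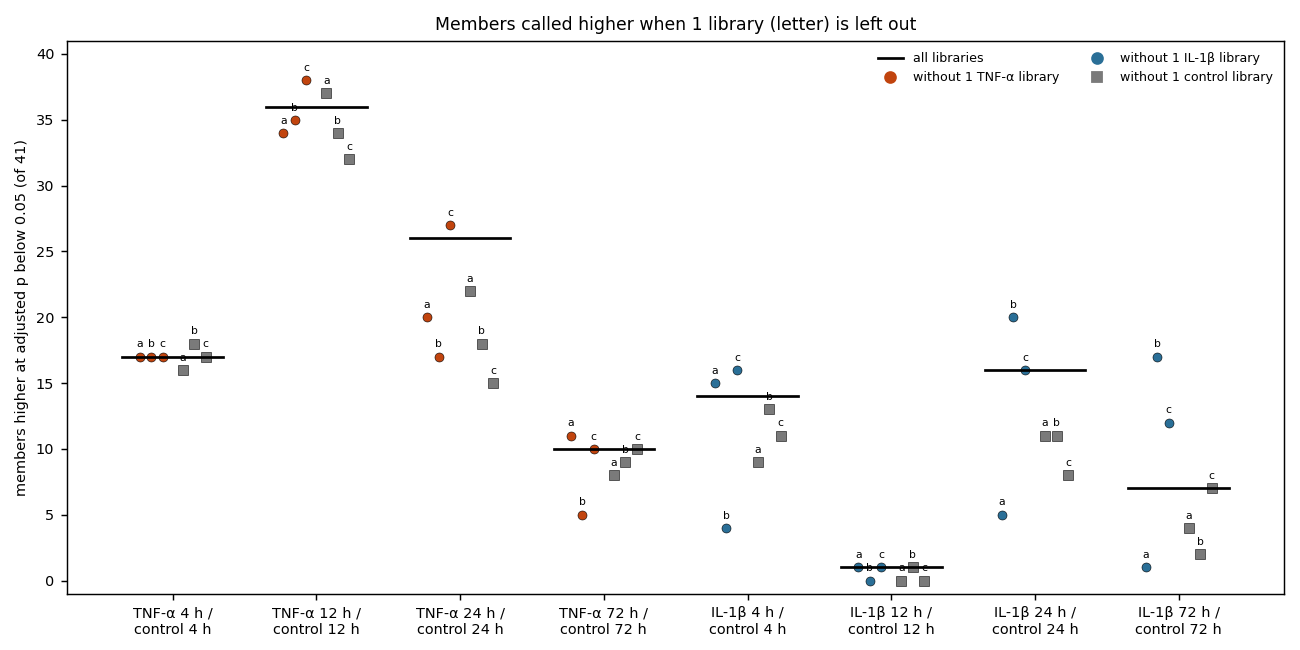
Number of the 41 genes called higher than control (vertical axis) with all libraries (black bar) and with 1 library left out, named by its letter, for each cytokine and time; circles leave out a treated library and squares a control library. The count drops from the bar to 4 without IL-1beta 4 h b, to 5 without IL-1beta 24 h a, to 1 without IL-1beta 72 h a and to 5 without TNF-alpha 72 h b, and stays at 32 or more in TNF-alpha 12 h.

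The cytokines were compared directly at each time, at their different doses. At 12 h 38 of the 41 genes were higher and 0 lower with TNF-alpha than with IL-1beta, while 5.88% of all genes were higher and 4.7% lower, and the median log2 fold change was 2.25 against 0.0081. The TNF-alpha libraries lay above all IL-1beta libraries for 39 of the 41 (all genes 11.6%). Rsad2, Cxcl10 and Ifit3 are examples. The log2 fold changes of TNF-alpha over IL-1beta were 5.33 for Rsad2 (adjusted p = 0.000525), 4.76 for Cxcl10 (adjusted p = 1.03e-05) and 3.04 for Ifit3 (adjusted p = 0.000622). Leaving out 1 library, 26 of the 38 were called in each of the 6 fits.

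At 4 h 5 of the 41 were higher and 0 lower with TNF-alpha than with IL-1beta (all genes 6.66% higher and 5.71% lower), the higher ones being Cxcl10, Cxcl11, Ifit2, Parp14 and Trim25. Parp14 had 46.7, 49.5 and 52.2 CPM in TNF-alpha 4 h and 12.2, 25.5 and 10.3 CPM in IL-1beta 4 h (log2 fold change 1.53 ± 0.33 SE, adjusted p = 0.00123), and was the gene called in each fit without 1 library. Without a or c of IL-1beta 4 h, or a or c of TNF-alpha 4 h, 2 of the 41 were called. Cxcl11 had 15 counts in the TNF-alpha libraries and 0 in the IL-1beta libraries, at least 11.3-fold higher with 3 counts over the group as the limit. At 24 h 2 were higher, Epsti1 and Parp14 (all genes 10.8%), neither of them in each fit without 1 library. Without IL-1beta 24 h a 10 were higher, without TNF-alpha 24 h c 6, and without IL-1beta 24 h b 0 were higher and 1 lower. Of the 39 not called at 24 h, Cxcl10 had 22.2, 21.3 and 9.32 CPM in TNF-alpha 24 h and 19.1, 1.26 and 4.13 CPM in IL-1beta 24 h.

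At 72 h 5 of the 41 were higher and 1 lower with TNF-alpha than with IL-1beta (all genes 20.4% higher and 19.4% lower), and the median was -0.020. Ifit2 had 26.6, 30.4 and 26.7 CPM in TNF-alpha 72 h and 16.3, 7.72 and 9.39 CPM in IL-1beta 72 h (log2 fold change 1.35 ± 0.19 SE, adjusted p = 4.62e-07), with no overlap. Cxcl10 had 4.74, 22.7 and 8.29 CPM and 4.40, 0.971 and 0.943 CPM (log2 fold change 2.67 ± 0.70 SE, adjusted p = 0.00237). Dhx58, the gene called lower, had 4.48, 8.66 and 3.96 CPM with TNF-alpha and 28.4, 4.81 and 7.46 CPM with IL-1beta (log2 fold change -1.17 ± 0.41 SE, adjusted p = 0.0193), with library a of IL-1beta far above the others. Without that library 19 genes were higher and 0 lower, and without TNF-alpha 72 h b 2 were higher and 3 lower. Without IL-1beta 72 h b 3 were higher and 6 lower, so that the comparison at 72 h depended on which library was included.

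The largest of the 4 log2 fold changes against control fell at 12 h for 26 of the 41 genes with TNF-alpha, at 4 h for 6, at 24 h for 7 and at 72 h for 2. With IL-1beta it fell at 4 h for 19, at 12 h for 1, at 24 h for 14 and at 72 h for 7. The 6 genes with their largest TNF-alpha change at 4 h were Cxcl10, Dtx3l, Ifit1, Mx1, Mx2 and Rsad2. These are point values with no test between the cytokines, and the control groups differ between the times. Of the IL-1beta maxima, those at 4 h, 24 h and 72 h come from the groups in which 1 library was far above the others, most of all at 72 h.

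Whether an effect changed over time was tested by the interaction of treatment with the 4 times, which was called for 4 of the 41 genes with TNF-alpha (19.2% of all genes) and for 4 with IL-1beta (38.7% of all genes). With TNF-alpha these were Ifit2 (F = 7.79, adjusted p = 0.00497), Bst2 (F = 6.93, adjusted p = 0.00883), Samd9l (F = 6.63, adjusted p = 0.0108) and Lgals3bp (F = 5.15, adjusted p = 0.0306). With IL-1beta they were Ifit2 (F = 10.9, adjusted p = 0.000248), Lgals3bp (F = 8.14, adjusted p = 0.00163), Rsad2 (F = 4.96, adjusted p = 0.0188) and Cxcl10 (F = 3.80, adjusted p = 0.049). Both shares, 4 of 41, were below those of all genes in the same fit. A fit with no low-count filter called 36 of 41 for each cytokine. Without IL-1beta 72 h a the IL-1beta interaction was called for 21 of the 41. The shares of all genes in these other fits are not given here, so these counts cannot be read as particular to the set. Of the 8 calls named above, 5 held in each of the 24 fits that left out 1 library. The IL-1beta call was lost in 17 for Cxcl10 and in 2 for Rsad2, and the TNF-alpha call in 4 for Lgals3bp. Samd9l, a restriction factor of poxviruses, had 71.5, 64.3 and 60.0 CPM, 68.2, 73.6 and 64.8 CPM, 76.2, 64.9 and 54.0 CPM and 48.8, 70.9 and 54.9 CPM in TNF-alpha 4, 12, 24 and 72 h, against 36.1, 38.8 and 35.1 CPM, 42.9, 37.0 and 32.7 CPM, 49.4, 54.1 and 43.5 CPM and 60.5, 62.4 and 65.9 CPM in the controls of those times. It lay above the controls at 4 h and 12 h and overlapped them at 24 h and 72 h.

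Bst2 was the gene whose TNF-alpha effect was larger at 12 h than at 4 h (log2 difference 1.87, adjusted p = 0.011), and 3.76% of all genes were called in that direction. At 4 h it had 34.1, 38.6 and 24.8 CPM in TNF-alpha libraries, against 20.1, 42.1 and 22.7 CPM in control 4 h, with overlap, and without control 4 h b, the highest of these controls, the call was lost (log2 difference 1.49, adjusted p = 0.0535). The TNF-alpha effect was smaller at 72 h than at 12 h for 4 genes (all genes 4.9%): Cmpk2, Ifit2, Irf9 and Samd9l, with log2 differences of -4.05, -1.25, -1.12 and -0.98. Ifit2 and Samd9l were called in each of the 12 fits that left out 1 library, Cmpk2 in 7 and Irf9 in 6, and the difference for Cmpk2 was -2.44 (adjusted p = 0.183) without TNF-alpha 12 h a. The IL-1beta effect on Cxcl10 was smaller at 12 h than at 4 h (log2 difference -5.25, adjusted p = 0.0362; all genes 6.24%), but was called in only 5 of the 12 fits that left out 1 library (highest adjusted p = 0.251). Between 12 h and 72 h the IL-1beta effect was larger at 72 h for Dhx58, Ifi44 and Lgals3bp (log2 differences 1.93, 2.12 and 0.68; all genes 14.1%) and smaller for Ifit2 (-1.03; all genes 14.1%), and the values of Dhx58 and Ifi44 followed library a. Lgals3bp and Ifit2 were called in each of the 12 fits, Dhx58 in 5 and Ifi44 in 6, and both of these were lost without IL-1beta 72 h a (log2 differences 0.83 and 0.56, adjusted p = 0.31 and 0.54).

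The untreated cartilage also moved. Between control 72 h and control 12 h 11 of the 41 genes were higher and 0 lower (all genes 18.7% higher), with a median of 0.63 against 0.0011. Ifit2 had 33.1, 34.3 and 35.8 CPM in control 72 h, against 17.5, 13.2 and 15.1 CPM in control 12 h (log2 fold change 1.16 ± 0.19 SE, adjusted p = 9.02e-06), and Bst2 had 63.4, 47.5 and 89.6 CPM against 22.0, 20.0 and 21.6 CPM (log2 fold change 1.65 ± 0.34 SE, adjusted p = 0.000208). Irf9 had 42.5, 37.9 and 51.9 CPM against 24.0, 20.3 and 19.3 CPM (log2 fold change 1.05 ± 0.24 SE, adjusted p = 0.000772), and in these 3 genes the control 72 h libraries lay above all control 12 h libraries. That separation held for 24 of the 41 and for 23.3% of all genes. Without control 12 h b, 7 of the 11 were called. Between control 24 h and control 12 h 0 were called by edgeR (2 at an unadjusted p below 0.05, 0 by DESeq2; all genes 10.2% higher). Between control 4 h and control 0 h 0 were higher and 2 lower (all genes 10.2% lower), Bst2 with 20.1, 42.1 and 22.7 CPM against 55.4 and 56.7 CPM and Trim25 with 28.2, 27.7 and 26.9 CPM against 40.3 and 36.0 CPM, with only 2 libraries at 0 h.

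Among the promoters searched, the 14 genes with the ISRE core had a median log2 fold change of 2.05 with TNF-alpha at 12 h (13 of 14 called higher), and the 17 genes without it had 0.96 (14 of 17 called higher). With IL-1beta at 12 h the medians were -0.19 with the core and -0.15 without it. The ranges overlapped widely, from 0.60 to 5.72 with the core and from -0.28 to 5.86 without it, so these are a description only.

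Transcripts of the interferons themselves were at or near 0. Ifnb1, the interferon most cells make first, had 6 counts in all 38 libraries together and at most 2 in any 1 library. Of 21 genes of type I, II and III interferons 15 had 10 or fewer counts in all, and the largest totals were 108 for Ifne and 88 for Ifnz. Ifng, the type II interferon of T and NK cells, had 14. With 3 counts as the limit and counting error only, a count of 0 allows up to 0.0437 CPM in IL-1beta 4 h b. That library had the most counts, but its reads may have been counted more than once, so its limit may be higher. In the shallowest library a count of 0 allows up to 0.269 CPM. The receptor chains were well expressed and rose in each of the 8 comparisons of a cytokine with control, Ifnar1 by log2 fold changes of 0.24 to 0.53 and Ifnar2 by 0.49 to 1.36. In tissue measured in bulk, fewer cells of a type and less RNA per cell cannot be told apart, for these and for all other genes here.

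The list of interferon signal transduction genes, 13 of 13 tested, held 9, 5, 5 and 6 genes higher and 0, 0, 1 and 0 lower with TNF-alpha than in control at 4, 12, 24 and 72 h, where 10.9%, 14.6%, 13.2% and 17.8% of all genes were higher and 10.6%, 13.8%, 11.9% and 18.3% lower. With IL-1beta 9, 6, 7 and 8 were higher and 1 was lower at each time, where 15.5%, 14.5%, 17% and 19.3% of all genes were higher and 17.2%, 15%, 15.6% and 19.7% lower.

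Irf1, a transcription factor of the same pathway that also binds ISRE-like sites, had 21.4, 16.3 and 17.8 CPM in IL-1beta 72 h, against 10.2, 9.50 and 9.90 CPM in control 72 h, and 15.3, 15.3 and 12.9 CPM in IL-1beta 4 h, against 8.07, 6.41 and 7.54 CPM in control 4 h. Its ratio of highest to lowest library was 1.31 in IL-1beta 72 h and 1.19 in IL-1beta 4 h. With TNF-alpha it had 50.2, 40.6 and 48.6 CPM at 4 h (log2 fold change 2.65 ± 0.17 SE, adjusted p = 6.11e-15) and 31.5, 56.9 and 35.1 CPM at 12 h (log2 fold change 2.45 ± 0.18 SE, adjusted p = 2.05e-13). It rose in all 8 comparisons with control, more with TNF-alpha than with IL-1beta at each time (log2 fold changes of TNF-alpha over IL-1beta 1.02 to 1.67, all called). Socs3 and Ptpn2, brakes on Janus kinase signalling, were picked after their values were seen. At 12 h they were lower with TNF-alpha than with IL-1beta, by -0.96 (adjusted p = 6.85e-08) and -0.95 (adjusted p = 3.05e-09). Usp18, which dampens the interferon receptor, went the other way. It had 23.7, 17.3 and 14.5 CPM in TNF-alpha 12 h and 3.24, 2.25 and 2.17 CPM in IL-1beta 12 h. Other brakes of the list are not given here, and the part of any brake in the results was not tested.

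Of the list of genes that sense nucleic acid and induce interferon, 15 of 19 listed names were tested. With TNF-alpha 4, 9, 7 and 4 were higher and 1, 0, 0 and 1 lower than in control at 4, 12, 24 and 72 h, and with IL-1beta 8, 6, 8 and 8 were higher and 0, 1, 1 and 1 lower, beside the shares of all genes just given. Irf5 rose with TNF-alpha at 12 h (log2 fold change 3.25, adjusted p = 6.96e-13) and Tmem173 (STING, which relays the sensing of DNA in the cytosol) rose at 12 h with TNF-alpha (1.41, adjusted p = 3.49e-06) and with IL-1beta (0.91, adjusted p = 0.00189). Tlr7 was higher with IL-1beta at 72 h (log2 fold change 2.75, adjusted p = 1.39e-10) and was not called with TNF-alpha at 72 h (0.65, adjusted p = 0.119).

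Macrophage and monocyte markers, whose cells respond strongly to interferon, summed to 26.5, 22.8 and 28.0 CPM in TNF-alpha 12 h, 25.3, 23.4 and 23.8 CPM in IL-1beta 12 h and 23.4, 24.3 and 22.6 CPM in control 12 h. These ranges overlap between TNF-alpha, IL-1beta and control. At 24 h the sums were 46.6, 33.1 and 48.0 CPM with TNF-alpha and 48.3, 52.5 and 45.5 CPM with IL-1beta, against 24.99, 24.1 and 34.6 CPM in control, and at 72 h they were 71.2, 49.8 and 54.4 CPM with TNF-alpha and 38.96, 32.7 and 36.7 CPM with IL-1beta, against 30.03, 27.4 and 27.3 CPM in control. The IL-1beta 24 h, TNF-alpha 72 h and IL-1beta 72 h libraries thus lay above all their controls for this sum. Most of it came from Cd68 and Lyz2, which went apart in IL-1beta 72 h. Lyz2 had 431, 438 and 543 counts there, against 139, 143 and 109 in control 72 h. Cd68 had 148, 171 and 218 counts, against 406, 371 and 292. Ptprc had 7, 10 and 9 counts, against 8, 9 and 7. The part of these markers in the changes of the 41 genes was not tested. Within TNF-alpha 72 h the library that was high for the 41 genes, b, had the lowest macrophage and monocyte sum.

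The sum of the 6 plasmacytoid dendritic cell markers was 345, 395 and 312 CPM in TNF-alpha 72 h and 397, 278 and 289 CPM in IL-1beta 72 h, against 319, 286 and 326 CPM in control 72 h, highest in the 2 libraries that also stood out for the 41 genes. It was made up almost wholly of Tcf4, at 123 to 255 CPM over the 38 libraries, and Bst2, one of the 41, at 20.0 to 162 CPM. The other 4 each stayed below 1 CPM in every library, and Siglech, the defining marker, had 16 counts in all and none in 24 of the 38 libraries. The part of this cell type in the result was not tested.

 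Chondrocyte markers at 72 h summed to 36697, 42364 and 43482 CPM with TNF-alpha and 18111, 18136 and 16816 CPM with IL-1beta, against 79792, 85582 and 105562 CPM in control, and the part of this difference in the CPM of the 41 genes was not tested. A further split was seen in 15 mostly predicted genes, which were at least 2-fold lower in the 8 libraries of IL-1beta 4 h, control 4 h and control 0 h than in all 30 others. None of the 41 genes was among them, and TNF-alpha 4 h against control 4 h or against IL-1beta 4 h are comparisons that cross it.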

How the data were processed

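The deposited table holds raw read counts per gene for 39 mRNA libraries, with a gene length that the authors give in the file header. Per the submitters' processing notes Trimmomatic, cutadapt, STAR, featureCounts and build mm10 were used; their versions and the strand setting are not stated there. A further table of the series, of miRNA counts, was not used here. The deposited table has 52459 named genes, and 2199 lines with no name were left out. The column of control 0 h b, with 220180 counts on named genes and a highest Spearman correlation of 0.19 with any other library, was left out, which gave 38 libraries in 13 groups with 11163263 to 68655350 counts.

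Counts as deposited were tested with edgeR 4.0.16 (R 4.3.3): TMM scaling, the filterByExpr filter with a minimum count of 10, all 13 groups in 1 fit with no covariate, the quasi-likelihood F test and Benjamini-Hochberg adjustment over 18857 genes. Levels are TMM-scaled CPM, and spread is the SD of log2(CPM + 1), with a pseudocount of 1. The 41 genes and the gene lists were chosen with earlier results of these data known. Values in every library were given for the 3 called genes of smallest p with a mean of at least 1 CPM in each comparison of a cytokine with control and for the 4 genes of smallest p in each interaction; other genes of the set and of the lists were added as examples after their values were seen. Where a group had 3 counts or fewer of a gene, the ratio of summed counts is given with a 95% exact counting interval, or against 3 counts over the group where it had 0. Data were simulated for TNF-alpha 12 h against control 12 h, with 18241 genes in the fit. Of genes changed by 1.5-fold, 2-fold and 4-fold, 54.5%, 75.8% and 92.2% were recovered, and 6.45% of calls were false. In the simulation all libraries of a gene shared 1 mean and 1 spread, apart from the changed genes in TNF-alpha 12 h. It held far fewer changed genes than the data and no groups of wider spread, so these shares may not hold for the 41 genes. The alternatives were DESeq2 1.42.0, other scalings, the replicate letter as a block, no filter on low counts, fits on the compared libraries alone, all 39 libraries, control 12 h in place of control 4 h, a pseudocount of 0.1 and leaving out each library.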

Additional observations from a re-analysis of the deposited data

Results flagged for a closer look

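Effects of a cytokine that differed between times, by a test of the difference itself, were seen in the following genes of the set. The IL-1beta effect at 12 h minus that at 4 h was -5.25 on the log2 scale for Cxcl10, which was high in all 3 IL-1beta 4 h libraries and overlapped the controls at 12 h; this call was lost in 7 of the 12 fits that left out 1 library. The IL-1beta effect at 72 h minus that at 12 h was 1.93 for Dhx58, 2.12 for Ifi44, 0.68 for Lgals3bp and -1.03 for Ifit2. The call was lost in 7 of the 12 fits for Dhx58 and in 6 for Ifi44, and in none for Lgals3bp and Ifit2. The TNF-alpha effect at 12 h minus that at 4 h was 1.87 for Bst2, a call lost without control 4 h b. The TNF-alpha effect at 72 h minus that at 12 h was -1.12 for Irf9, -1.25 for Ifit2, -4.05 for Cmpk2 and -0.98 for Samd9l. The call was lost in 6 of the 12 fits for Irf9 and in 5 for Cmpk2, and in none for Ifit2 and Samd9l. The shares of all genes called in these differences are given above.

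Over all 4 times the F of the interaction with TNF-alpha was 7.79 for Ifit2, 6.93 for Bst2, 6.63 for Samd9l and 5.15 for Lgals3bp. With IL-1beta it was 10.9 for Ifit2, 8.14 for Lgals3bp, 4.96 for Rsad2 and 3.80 for Cxcl10. Ifit2 is the gene that passed this test for both cytokines with the largest F, and Lgals3bp also passed it for both.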

How the results depend on the processing

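The shares of all genes called under the alternatives are not given here, so the counts below cannot be read as particular to the set. The count of called genes of the set kept within 1.5-fold under most alternatives for TNF-alpha at 12 h, where it was 35 to 40 in all but the fits that left out a library (32 to 38). With no low-count filter the count was 29 for TNF-alpha 4 h and 24 for 72 h, and 31, 15, 33 and 29 for IL-1beta 4, 12, 24 and 72 h. With no filter TNF-alpha against IL-1beta gave 16, 23 and 22 at 4, 24 and 72 h, control 4 h against 0 h, 24 h against 12 h and 72 h against 12 h gave 13, 10 and 27, and both interactions gave 36. The differences of effects then gave 26 (IL-1beta, 12 h minus 4 h), 21 (IL-1beta, 72 h minus 12 h), 17 (TNF-alpha, 12 h minus 4 h) and 31 (TNF-alpha, 72 h minus 12 h). With the compared libraries alone it was 34 for TNF-alpha 4 h, 11 for IL-1beta 12 h, 26 for IL-1beta 24 h, 5 for TNF-alpha against IL-1beta at 24 h, 9, 8 and 26 for the controls, 16, 4 and 13 for the differences IL-1beta 12 h minus 4 h, TNF-alpha 12 h minus 4 h and TNF-alpha 72 h minus 12 h, and 18 for the TNF-alpha interaction.

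DESeq2 gave 1 for TNF-alpha against IL-1beta at 24 h, 1 for control 4 h against 0 h, 6 for IL-1beta 12 h minus 4 h, 2 for TNF-alpha 12 h minus 4 h and 8 for the TNF-alpha interaction. Scaling by library totals alone gave 2 for control 24 h against 12 h and 3 for TNF-alpha 12 h minus 4 h. With all 39 libraries the direction of the balance turned for IL-1beta 12 h (1 higher, 0 lower) and IL-1beta 72 h minus 12 h (1 lower, 0 higher), and counts moved to 2 and 1 for TNF-alpha against IL-1beta at 4 and 24 h, 0 for control 4 h against 0 h, 0 for IL-1beta 12 h minus 4 h, 2 for TNF-alpha 72 h minus 12 h and 2 for each interaction. With a pseudocount of 0.1 the median SD was 0.311, 0.249, 0.302, 0.228 and 0.286 in control 0, 4, 12, 24 and 72 h, 0.274 in IL-1beta 12 h and 0.618 in TNF-alpha 72 h. The cause of these shifts was not tested.

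Leaving out 1 library gave 16 to 18 called genes for TNF-alpha 4 h, 15 to 27 for 24 h and 5 to 11 for 72 h. It gave 4 to 16, 0 to 3, 6 to 20 and 3 to 18 for IL-1beta 4, 12, 24 and 72 h, and 2 to 7, 29 to 40, 1 to 10 and 4 to 19 for TNF-alpha against IL-1beta at 4, 12, 24 and 72 h. For the controls it gave 0 to 2, 0 to 1 and 7 to 11, for the IL-1beta differences 0 to 4 and 2 to 7, for the TNF-alpha differences 0 to 3 and 2 to 8, for the IL-1beta interaction 2 to 21 and for the TNF-alpha interaction 3 to 8. The balance of higher and lower genes turned for IL-1beta 12 h without a or c (1 called), IL-1beta 72 h without a (5), IL-1beta 72 h minus 12 h without a of 72 h (3), TNF-alpha against IL-1beta at 24 h without IL-1beta b (1), and at 72 h without IL-1beta b (9) or TNF-alpha b (5). Ifit3 in IL-1beta 72 h turned to 0.0082 on the log2 scale without replicate b, and was -2.31 without replicate a.

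Libraries that share a letter do not deviate together: over 222 same-letter pairs the lowest correlation was -0.25, and 9 of 38 libraries correlated best with their own letter, so the letters were not taken as pairs. With the replicate block 4 genes were called for TNF-alpha against IL-1beta at 24 h, 1 for control 24 h against 12 h, 2 for IL-1beta 12 h minus 4 h and 7 for the TNF-alpha interaction, and the counts of the other comparisons stayed within 1.5-fold. Depth limits the lowest genes: Cxcl11 had at most 26 counts in a group.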

Other observations

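Gbp3 and Iigp1, picked after their values were seen, stood above the mean of the other libraries of their group in the same 4 libraries as the set. Library a of IL-1beta 72 h exceeded the others by 3.13 on the log2 scale for Gbp3 and 1.95 for Iigp1, library a of IL-1beta 24 h by 2.16 and 1.58, library b of IL-1beta 4 h by 1.40 and 1.26, and library b of TNF-alpha 72 h by 1.52 and 1.48. Gbp3 also did so in library b of TNF-alpha 12 h, by 1.68.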
